A study of Homo sapiens with 2 samples.

Results

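The genes described here are the fibroblast growth factor (FGF) receptors FGFR1, FGFR2, FGFR3, FGFR4 and FGFRL1, the FGF family genes FGF11, FGF13 and FGF18, the FGF binding protein gene FGFBP1 and the adaptor gene FRS2. All probe sets annotated to exactly 1 of these 10 symbols were taken, which gave 36 of the 54675 probe sets on the array and covered 9 of the 10 genes. No probe set was listed for FRS2 in the annotation used, so its level was not analysed here. No probe set carried 1 of the symbols together with another gene.

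Expression was measured on Affymetrix U133 Plus 2.0 microarrays, on which a probe set is a group of short oligonucleotides that reports 1 transcript as 1 signal. One array carried RNA from Seg-1 cells that had received a negative control siRNA without homology to known genes, and 1 array carried RNA from Seg-1 cells that had received an siRNA that targets FGF-AS, an RNA transcribed antisense to FGF2. Seg-1 is an adherent line that had been taken for esophageal adenocarcinoma and that the labels identify as the lung cancer line H460. Both cultures were reverse transfected with a lipid reagent at siRNA concentrations between 25 and 200 nM and harvested after 72 hours. The sources used here do not state which concentration each array had. Both arrays came from transfected cells, and no array of untransfected cells was analysed here. Each group held 1 array, so differences between siRNAs carry no replicate check, and p-values are left out.

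FGFs are secreted growth factors that bind receptor tyrosine kinases on the cell surface together with heparan sulfate chains or klotho proteins. The activated receptor phosphorylates the membrane-anchored adaptor FRS2, which recruits GRB2, SOS and SHP2 (the product of PTPN11) and so feeds the RAS-ERK and PI3K pathways. Sprouty, SPRED and DUSP proteins are induced by the pathway and dampen it. In lung, FGF signalling from mesenchyme to epithelium drives branching, and amplified or rearranged FGF receptor genes occur in some lung cancers.

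Annotated start regions are shown for FGF13, whose annotated starts differ in CpG content, and for FGFBP1, whose ratio between the arrays was furthest from equality among the measured probe sets. The difference is not particular to FGF13. Start windows of FGFR2 held from 3 to 42 CpG dinucleotides, those of FGFR4 24 and 2, and those of FGF11 from 5 to 18. The 250 bases upstream of their annotated starts are printed 5′ to 3′ on the gene's own strand, from RefSeq on GRCh38.p14, with CpG dinucleotides in capitals. Both genes lie on the minus strand, FGF13 on chromosome X and FGFBP1 on chromosome 4, and FGF13 has 2 annotated start windows.
FGF13, chrX:139205024-139205273: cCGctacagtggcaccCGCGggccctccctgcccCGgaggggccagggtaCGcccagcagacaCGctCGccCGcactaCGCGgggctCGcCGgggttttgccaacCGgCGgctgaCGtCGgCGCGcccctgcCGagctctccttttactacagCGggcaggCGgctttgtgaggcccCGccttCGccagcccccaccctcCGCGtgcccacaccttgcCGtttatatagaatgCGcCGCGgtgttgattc
FGF13, chrX:138739354-138739603: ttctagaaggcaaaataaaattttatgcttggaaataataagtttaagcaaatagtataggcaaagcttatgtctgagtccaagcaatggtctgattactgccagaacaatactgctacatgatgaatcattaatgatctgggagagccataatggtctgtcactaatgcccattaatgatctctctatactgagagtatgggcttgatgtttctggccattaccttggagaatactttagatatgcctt
FGFBP1, chr4:15938741-15938990: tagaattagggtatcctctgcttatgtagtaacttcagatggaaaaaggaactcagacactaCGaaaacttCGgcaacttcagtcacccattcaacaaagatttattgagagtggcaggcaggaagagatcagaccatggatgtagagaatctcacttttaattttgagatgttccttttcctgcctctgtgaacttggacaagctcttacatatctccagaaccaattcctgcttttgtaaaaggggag

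The upstream FGF13 window held 29 CpG dinucleotides, at percentile 86.7 of 35116 annotated start windows. The downstream FGF13 window held 0, at percentile 3.0, and the FGFBP1 window held 2, at percentile 18.8, where the median window held 11. The array does not show which FGF13 start the cells used. Start windows matched 9 of the 10 genes, FRS2 included and FGFR1 not. The letters TATAAA, searched on both strands of the 250 upstream bases, stood in 1 of their 17 windows, the upstream one of FGF13, against 10.7% of all windows.

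Signals are given as deposited, on a linear scale. A ratio is the log2 of (FGF-AS siRNA signal + 6.1) over (control signal + 6.1), where 6.1, the 25th percentile of all signals, is an offset that shrinks the ratio of dim probe sets. A probe set counted as measured when its mean over both arrays was at least 23.85, the median over all probe sets, and as brighter from 145.15, the 75th percentile. As a gauge of how bright a probe set of an unexpressed gene can read, 205 probe sets of olfactory and bitter taste receptors, keratin-associated proteins and beta defensins were used, and 95% of them had a mean signal under 34.6. The only error at hand was the SD of a single ratio, computed from how far the probe sets of a gene disagree with each other. It was 0.36 for brighter probe sets (3050 genes) and 0.58 for dimmer measured ones (2364 genes), and it covers no difference between cultures. Signals are set against these thresholds and within each array, and no order of expression between genes is read from them, because probes bind with unlike strength.

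The siRNA target and the cell type were checked first. NUDT6, the gene that encodes FGF-AS, went from 376.9 (control siRNA) to 104.5 (FGF-AS siRNA) on 1 probe set and from 267 to 77.8 on the other, with ratios of -1.79 and -1.70. Of 6 epithelial markers 5 were measured, among them KRT18 (10152.5 and 9327.2) and KRT8 (3475.7 and 3780.9), while CDH1 (0.9 and 18.4) and the lung lineage factor NKX2-1 (24.9 and 11.8) read under the minimum on average. None of the 3 squamous markers with a probe set was measured. Of the lung adenocarcinoma markers, NAPSA read 31.9 and 44, SFTPB 110.8 and 98, and SFTPC 14.7 and 59.1 (ratio 1.65). SFTPC counted as measured only through the FGF-AS siRNA array. Of the markers of other cell types, 4 of 7 fibroblast, 1 of 5 endothelial and 2 of 5 leukocyte markers were measured. Among the fibroblast markers the collagen gene COL3A1 read 316.4 and 104.6 (ratio -1.54, and -1.39 and -0.91 on its other 2 measured probe sets), COL1A1 read 164.3 and 151.6 (ratio -0.11), and LUM (8.1 and 6.2) was not measured. The summed signal of the fibroblast markers was 565.1 and 369.4, that of the endothelial markers 58.0 and 78.0, and that of the leukocyte markers 80.8 and 93.9. The part of these markers in the FGF results was not tested.

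In these cells FGFR1, FGFR2, FGFRL1, FGF11 and FGF13 had at least 1 probe set at or above the gauge of unexpressed genes on both arrays, and FGFR3, FGFR4, FGF18 and FGFBP1 had none. A gene with more probe sets has more chances to reach the gauge. For FGFR1 it was 6 of 7 probe sets, but for FGFR2 only 1 of 11. That FGFR2 probe set read 35.4 with FGF-AS siRNA, close to 34.6, so expression of FGFR2 is not settled. Of the 9 genes, 8 had a measured probe set, and none of these probe sets was 2-fold higher or lower with FGF-AS siRNA. Of all measured probe sets with 1 gene symbol, 1.94% were 2-fold higher and 5.33% 2-fold lower. Of the 36 probe sets, 14 were measured (38.9%, against 56.5% of all probe sets with 1 gene symbol), 3 were brighter (8.3% against 29.8%), and 10 read at or above 34.6 on both arrays. Of all probe sets with 1 gene symbol 46.6% did so, and 2.9% of the gauge's own. A bulk array cannot tell fewer cells that express a gene from less RNA per cell. The 10 comprised 6 probe sets of FGFR1 and 1 each of FGFR2, FGFRL1, FGF11 and FGF13.

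**Figure D1:**
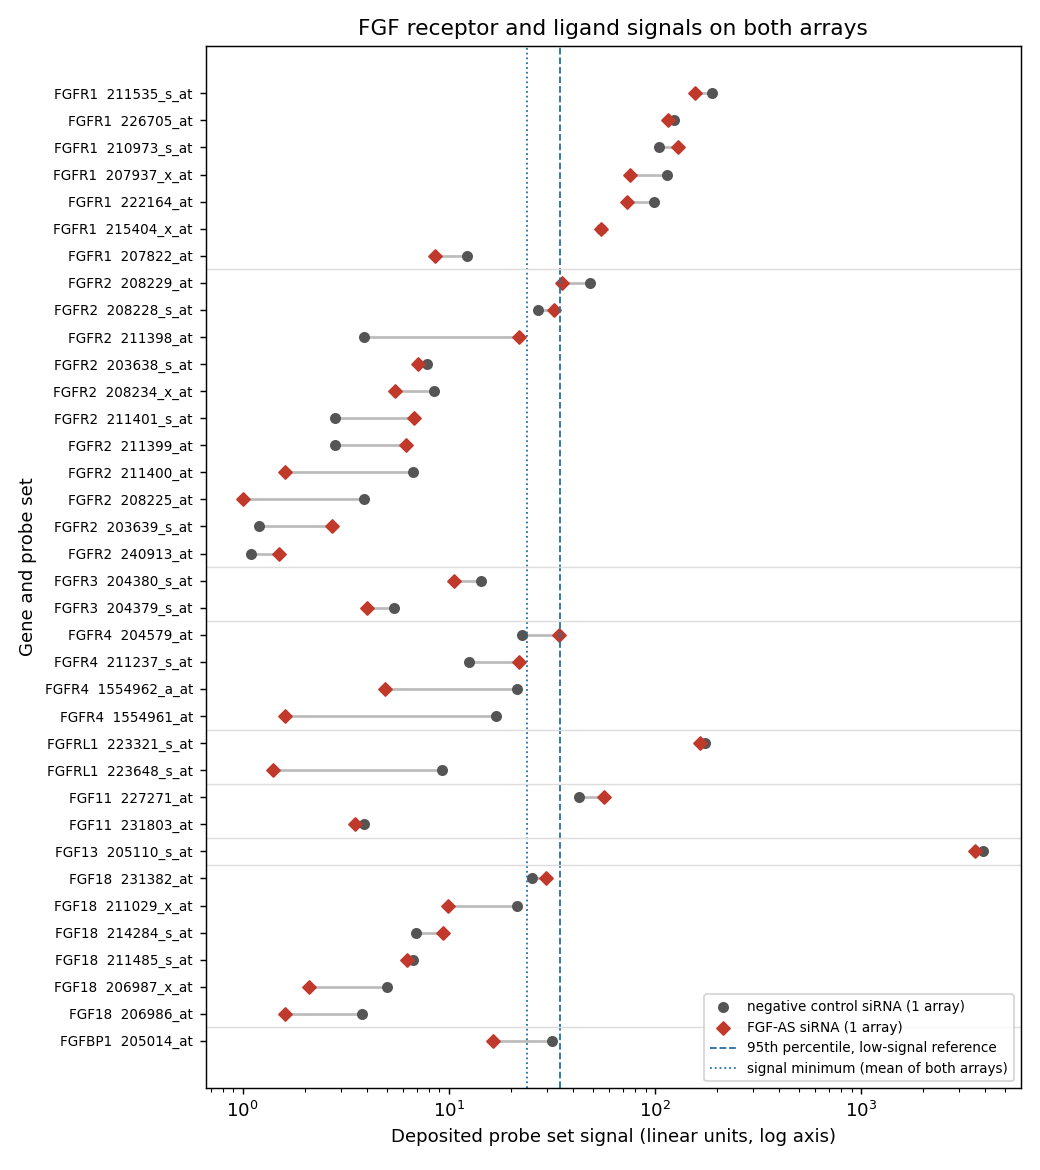
Deposited signal of each of the 36 probe sets on a log axis, grouped by gene, for the array with negative control siRNA (grey circles) and the array with FGF-AS siRNA (red diamonds), 1 array each. The dashed line marks 34.6, the level under which 95% of the reference probe sets lay, and the dotted line marks the signal minimum of 23.85, which applies to the mean of both arrays. FGF13 lies right of both lines, as does FGFR1 on 6 of its 7 probe sets, and FGFR3 lies left of both.

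FGFR1, a receptor tyrosine kinase found on mesenchymal and many tumour cells, had 7 probe sets, of which 6 were measured. Probe set 211535_s_at had signals of 189.9 (control siRNA) and 156.5 (FGF-AS siRNA), a ratio of -0.27. Probe set 226705_at read 124.1 and 115.4, a ratio of -0.10. Probe set 207937_x_at read 113.8 and 75.5, a ratio of -0.56. All 3 differences were smaller than the SD for probe sets of their brightness (0.36 for the first and 0.58 for the others).

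The other FGFR1 probe sets did not share 1 direction. Probe set 222164_at read 98.6 and 73.5 (ratio -0.40), and 215404_x_at read 54.6 and 54.5. Probe set 210973_s_at went the other way, at 104.2 and 129.8, a ratio of 0.30. The names ending in _s_at mark probe sets that can match several transcripts and those ending in _x_at ones that may bind unrelated sequences. Over the 6 measured probe sets the median ratio was -0.18 with an SD of 0.30, and the ratios ran from -0.56 to 0.30. The seventh, 207822_at, read 12.3 and 8.6, under the minimum. A difference in FGFR1 was therefore not resolved by these 2 arrays.

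FGFR2, whose splice forms bind different ligands in epithelium and mesenchyme, had 11 probe sets, and 2 were measured. Probe set 208229_at had signals of 48.6 (control siRNA) and 35.4 (FGF-AS siRNA), a ratio of -0.40. Probe set 208228_s_at read 27.2 and 32.5, a ratio of 0.21. The directions were opposite and both ratios were within the SD of 0.58. The remaining 9 probe sets read between 1 and 22. Among them 211398_at read 3.9 and 22, a ratio of 1.49 that rests on signals under the minimum on both arrays.

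FGFR3, a receptor tyrosine kinase active in cartilage and bladder epithelium, had 2 probe sets, and both were dim. Probe set 204380_s_at read 14.4 and 10.6, and 204379_s_at read 5.4 and 4. FGFR3 was the only one of the 9 genes with no measured probe set.

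FGFR4, the receptor for bile-acid regulating FGF19 in liver, had 4 probe sets that split into pairs. Probe set 204579_at had signals of 22.7 (control siRNA) and 34.1 (FGF-AS siRNA), a ratio of 0.48 that ran from 0.41 to 0.60 over the other scalings and offsets, against an SD of 0.58, and was the only measured one. Its control signal was under the minimum, so it counted as measured only through the FGF-AS siRNA array, which favours a ratio above 0. Probe set 211237_s_at read 12.5 and 21.9, a ratio of 0.59. The other pair, 1554962_a_at (21.4 and 4.9) and 1554961_at (16.9 and 1.6), had ratios of -1.32 and -1.58. This second pair was designed from 1 shared source sequence per the annotation, so its probe sets are not independent readings. All 8 signals lay under 34.6.

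FGFRL1 encodes a receptor-like membrane protein that binds FGFs but lacks the kinase domain. Its probe set 223321_s_at had signals of 175.1 (control siRNA) and 164.8 (FGF-AS siRNA), a ratio of -0.08 against an SD of 0.36. Over the other scalings and offsets this ratio ran from -0.09 to 0.05, so it has no settled direction. Its other probe set, 223648_s_at, read 9.3 and 1.4, under the minimum, with a ratio of -1.04.

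FGF13 belongs with FGF11 to the FGF homologous factors, which stay inside the cell, bind voltage-gated sodium channels and, for FGF13, also microtubules, and are not classical FGF receptor ligands. Its single probe set, 205110_s_at, had signals of 3920.5 (control siRNA) and 3559.2 (FGF-AS siRNA), at percentiles 98.5 and 98.3 of the signals on each array. The ratio was -0.14 (90.8% of control), within the SD of 0.36, and it ran from -0.16 to 0.00 over the other scalings and offsets. FGF11 read 43 and 56.7 on 227271_at, a ratio of 0.36 against an SD of 0.58. Its other probe set, 231803_at, read 3.9 and 3.5.

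The channels that these factors bind were dim. Of 9 voltage-gated sodium channel alpha subunit genes 8 had a probe set and 2 were measured. SCN9A read 55.5 and 39.4 on its brightest probe set (ratio -0.44), and its other measured probe set gave 0.15. SCN8A read 19.8 and 28.4 (ratio 0.41). SCN8A reached the minimum only through the FGF-AS siRNA array.

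FGF18, a secreted ligand of FGFR3 and other FGF receptors that acts in bone and lung development, had 6 probe sets, of which 231382_at alone was measured. It had signals of 25.3 (control siRNA) and 29.5 (FGF-AS siRNA), a ratio of 0.18 against an SD of 0.58. The other 5 read between 1.6 and 21.5. Of these, 211029_x_at read 21.5 and 9.9, a ratio of -0.79. No FGF18 signal reached 34.6 on either array.

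FGFBP1 encodes a secreted carrier that releases FGFs from heparan sulfate in the matrix. Its single probe set, 205014_at, had signals of 31.5 (control siRNA) and 16.3 (FGF-AS siRNA), 51.7% of control, a ratio of -0.75. It was the measured probe set furthest from a ratio of 0 and the only one past 1.5-fold. Its mean of 23.9 lay just inside the minimum of 23.85. Of the probe sets under the minimum, FGFR4 211237_s_at had the highest mean, 17.2. The FGFBP1 signal with FGF-AS siRNA was under the minimum. The probe set thus counted as measured only through the control array, which favours a ratio below 0. Both FGFBP1 signals lay under 34.6. The ratio was larger than the SD of 0.58 by a small margin, and it ran from -0.91 to -0.62 over the other scalings and offsets.

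**Figure D2:**
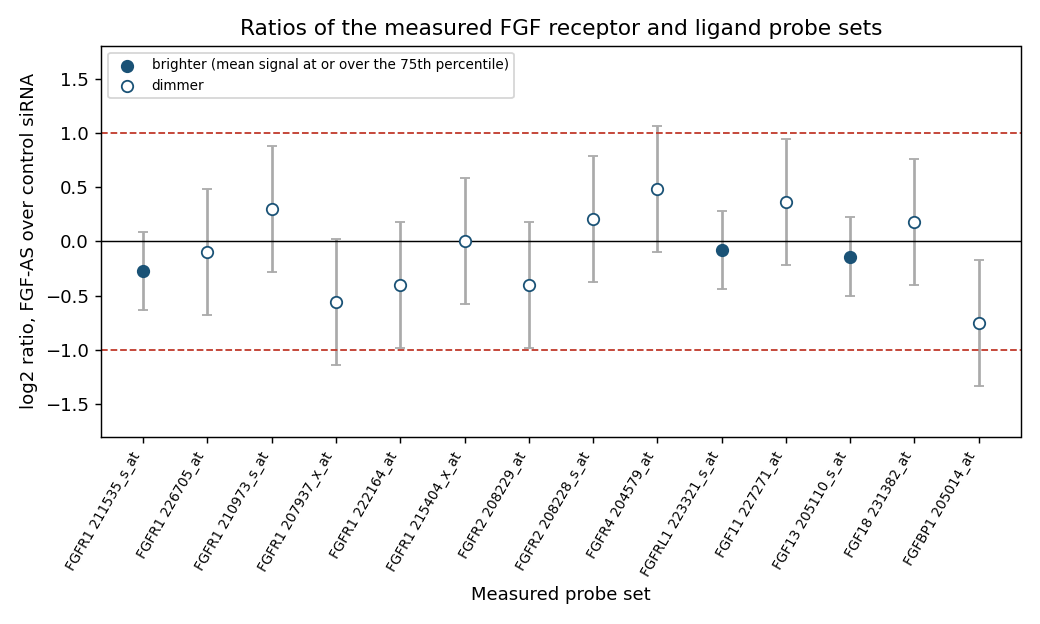
Log2 ratio (FGF-AS siRNA over negative control siRNA, offset 6.1) of the 14 measured probe sets, 1 array per siRNA. Bars show plus and minus 1 SD of a single ratio, computed from how far the probe sets of a gene disagree (0.36 for brighter and 0.58 for dimmer probe sets), and dashed lines mark 2-fold. All 14 points lie between the 2-fold lines, and FGFBP1 is the lowest at -0.75.

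The ratios were then set beside those of all genes on the array. None of the 14 measured probe sets was 2-fold higher, where 1.94% of all 23222 measured probe sets with 1 gene symbol were, and none was 2-fold lower, where 5.33% were. At 1.5-fold, 0 of 14 were higher (7.53% of all) and 1 was lower (15.1% of all). FGFR4 204579_at passed 1.5-fold as higher after division by the median (0.60), quantile normalization (0.60) and loess (0.59), and FGFR1 207937_x_at passed it as lower with an offset of 1 (-0.59). FGFBP1 was the 1 among 11 dimmer ones of the 14, where 21.4% of all 10980 dimmer measured probe sets were 1.5-fold lower. The median ratio of the 14 was -0.09 and that of all measured probe sets -0.07. In all, 9 of the 14 (64.3%) had a ratio below 0, as did 56.7% of all. The split between directions depends on the scaling: of all measured probe sets past 2-fold, 26.7% were higher as deposited and 43.1% after each array was divided by its median, which moved the median ratio of all measured probe sets from -0.07 to 0.07.

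Among the 22 probe sets under the minimum, 1 was 2-fold higher (FGFR2 211398_at) and 3 were 2-fold lower (2 of FGFR4 and 1 of FGFRL1). Of all probe sets under the minimum with 1 gene symbol, 9.35% were 2-fold higher and 12.1% 2-fold lower. Their ratios ran from -1.58 to 1.49, a wider range than the -0.75 to 0.48 of the measured ones.

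**Figure D3:**
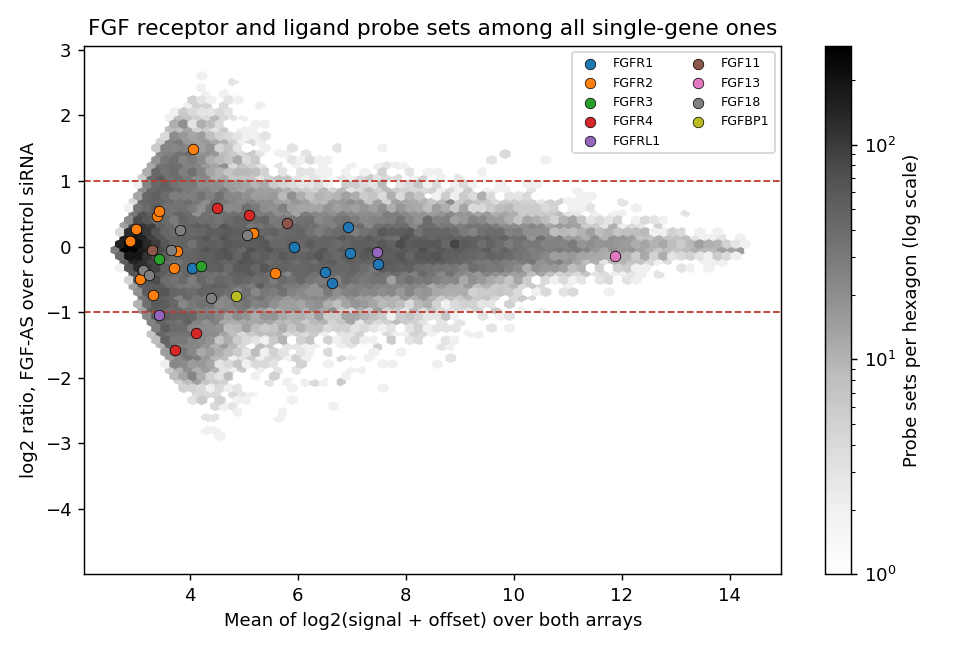
Log2 ratio (FGF-AS siRNA over negative control siRNA) against the mean of log2(signal + 6.1) over both arrays. Grey hexagons count the 41091 probe sets with 1 gene symbol on a log scale, coloured points are the 36 probe sets of the FGF receptors, ligands and FGFBP1, and dashed lines mark 2-fold. The 4 coloured points outside the 2-fold lines all lie at the dim left end, where the grey cloud is widest.

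The other genes of the pathway are given by role, each by its brightest probe set. Over all 12352 measured genes 2.05% were 2-fold higher and 2.72% 2-fold lower, the median ratio was -0.02, and 48.1% lay above 0. All 19 remaining FGF genes had a probe set, but only FGF2, FGF6 and FGF22 were measured. FGF2, a heparin-binding ligand and the sense partner of FGF-AS, had signals of 676.2 (control siRNA) and 911.8 (FGF-AS siRNA) (ratio 0.43), and its other probe set gave 0.05. FGF22 was dim at 20.4 and 34.1 (ratio 0.60) and reached the minimum only through the FGF-AS siRNA array, which favours a ratio above 0. FGF6 read 37.3 and 34.9 (ratio -0.08, but 0.05 at the highest over the other scalings and offsets).

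Of 19 co-receptor and FGF-binding genes, 14 were measured. By brightest probe set 6 lay above 0, 8 below 0 and none past 2-fold, with a median of -0.03. The count above 0 ran from 6 to 11 over the other scalings and offsets. The klotho genes KL (2.8 and 1.3) and KLB (26.4 and 7.6), whose products let endocrine FGFs bind, were not measured. Furthest above 0 was GPC4, a glypican (18.5 and 34.2, ratio 0.71), and furthest below 0 was FLRT1, a membrane partner of FGF receptors (41.8 and 29.6, ratio -0.42). GPC4 reached the minimum only through the FGF-AS siRNA array, which favours a ratio above 0, and both its signals lay under 34.6. Of the genes at or above 34.6 on both arrays, CDH2 was furthest above 0 (41.5 and 68.1, ratio 0.64). The other measured probe set of CDH2 gave -0.59. SDC2 gave 0.17 on its brightest probe set and -1.01, past 2-fold, and -0.02 on the others. FLRT2 gave -0.17 on its brightest and -0.73 and -0.61 on the others. Those of GLG1 went the other way, at -0.05 on the brightest and 0.28 to 0.55 on the others.

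Of 22 adaptor and enzyme genes downstream of FRS2, 16 had a probe set and all of these were measured. By brightest probe set their median ratio was 0.27, with 11 above 0, 5 below 0 and none past 2-fold. Over the other scalings and offsets the median ran from 0.27 to 0.41. HRAS, a RAS GTPase, was furthest above 0 at 467.6 and 750.4 (ratio 0.68). PIK3R1, the regulatory subunit of PI3K, was furthest below at 234.8 and 142.6 (ratio -0.70), and its other 2 measured probe sets gave -1.14 and -0.56. FRS3, the close relative of FRS2, read 41.5 and 24.9, a ratio of -0.62 on a dim probe set. Several of these genes have probe sets that disagree, such as PTPN11, whose brightest gave 0.28 and the other 5 ran from -2.08 to 1.11. The brightest of CBL gave 0.49, and its other 4 measured ones ran from -2.29 to 0.43. SOS2 gave -0.01 on its brightest and -2.11 to -0.83 on the other 3, and CRKL 0.15 and -1.11. SOS1 gave -0.21 on its brightest and -0.25 to 0.81 on the other 3. Other measured probe sets of these genes thus did pass 2-fold. Other receptors that signal through FRS2 were dim: RET read 52.5 and 39.8 (ratio -0.35) and NTRK2 17.7 and 32.9 (ratio 0.71). NTRK2 also reached the minimum only through the FGF-AS siRNA array.

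All 11 feedback regulators with a probe set were measured, 5 above 0 and 6 below, with a median of -0.03. By brightest probe set, SPRED3, an inhibitor of RAS-RAF signalling, was 2-fold lower at 51.5 and 19.9 (ratio -1.15), and no other member passed 2-fold. The brightest probe set of SPRED1 gave -0.03 and its other 2 measured ones -1.22 and -0.26. SPRED3 has 1 dim measured probe set, whose FGF-AS siRNA signal was under the minimum and under 34.6. The SPRED3 ratio ran from -1.33 to -0.99 over the other scalings and offsets, so the doubled offset ended that call. SPRY4, a sprouty inhibitor, was furthest above 0 at 139 and 222 (ratio 0.65). All 10 transcription targets were measured, 6 above 0 and 4 below, with a median of 0.04. EGR1, an immediate early transcription factor, read 117.6 and 236.3 (ratio 0.97), just under 2-fold. It passed 2-fold under all 4 other scalings (1.01 to 1.11), while its other 2 measured probe sets gave 0.27 and 0.72. FOS, another immediate early factor, read 73 and 50.5 (ratio -0.48).

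**Figure D4:**
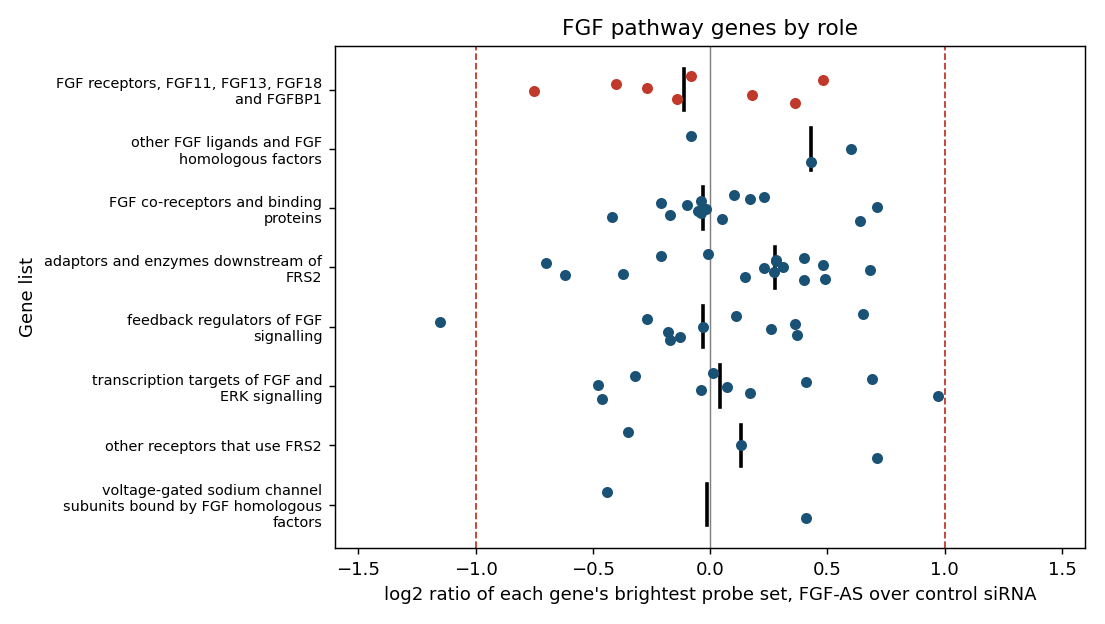
Log2 ratio (FGF-AS siRNA over negative control siRNA) of the brightest probe set of each measured gene, by role in the pathway. Points are genes, black bars are list medians, red points are the 8 measured genes among the receptors, FGF11, FGF13, FGF18 and FGFBP1, and dashed lines mark 2-fold. Of all the genes plotted, SPRED3 at -1.15 is the only one outside the dashed lines.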

How the data were processed

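The authors deposited 1 intensity per probe set and array on a linear scale; GCOS and MAS5 are listed in the submitters' processing notes without a version or scaling target, so how the arrays were scaled against each other stays unknown. The medians were 25.5 and 23.1 over the 54613 probe sets that are not Affymetrix controls. Depth has no meaning for arrays, and their number, 1 per group, limits the precision. MAS5 signals come without detection calls here. Oligo-dT priming, per the labels' protocols, favours probes near the 3′ end of transcripts.

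Of those 54613 probe sets, 41091 were annotated to 1 gene symbol, 1801 to several (given no gene) and 11721 to none. Gene identifiers were matched to RefSeq (GRCh38.p14), which held 41037 of the 41091 and changed none.

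Log2 ratios with the stated offset and minima were computed in Python 3.11.15 (pandas 2.3.3, numpy 2.4.6; loess in statsmodels 0.14.6) and the procedure was tested on simulated data. That test covered only brighter probe sets and planted changes larger than 2-fold. It therefore does not check the dimmer probe sets or the smaller ratios described here. No replicate test was possible with 1 array per siRNA. With 2 arrays a gene has 1 ratio, so no genes of like pattern were sought. Named genes were all member genes and, in each pathway list, the measured genes furthest above and below 0 and any past 2-fold. FRS3, KL, KLB, PTPN11 and FGF2 were named for their role after their values were seen. CDH2, SPRED1, CBL, SOS1, SOS2, CRKL, SDC2, FLRT2 and GLG1 were named for their values. Members and lists were chosen with earlier results of these data known.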

Additional observations from a re-analysis of the deposited data

How the results depend on the processing

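With no signal minimum, 1 of the 36 probe sets was 2-fold higher and 3 were 2-fold lower with FGF-AS siRNA, where the minimum had left 0 and 0; all 4 lie under the minimum. At 1.5-fold in place of 2-fold, 1 measured probe set (FGFBP1) was lower; in counts added after seeing the data, 1 (FGFR4) was higher under 3 of the 4 other scalings and 2 were lower with an offset of 1. The counts of 0 held under both other offsets, all 4 other scalings, the stricter minimum (3 probe sets left) and with the _s_at and _x_at probe sets left out (7 remaining). The median ratio of the measured probe sets, -0.09, was 0.04 after division by each array's median and after quantile normalization, and 0.01 after loess. Over 6 alternatives, 4 of the 14 measured probe sets had another sign under at least 1 (2 of FGFR1, FGFRL1, and FGF13 with a ratio of 0.00), and none moved by more than its SD. Leaving out a replicate was not possible with 1 array per group. No paired analysis was possible because each group holds 1 array.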
